A study of Hordeum vulgare with 22 samples.

Results

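The 2 invertase genes described here, a cell-wall invertase (HORVU2Hr1G109120) and an acid invertase (HORVU7Hr1G001040), are among the 24318 barley genes in the deposited table. They were picked by gene identifier because their levels were already known to differ between the barley line mnd1.a and cultivar Bowman in these libraries, so every difference between lines or stages in these 2 genes is given as a description, with no test. Both passed the filter on low counts, which kept 21132 genes. The samples were inflorescences of barley with their base and the small leaves below, grown in long days and harvested around midday. The allele mnd1.a, which gives its name to the line, sits in the genetic background of Bowman, and Bowman itself is the wild type. There were 3 mnd1.a and 3 Bowman libraries at Waddington stage W2.0, 3 mnd1.a and 4 Bowman libraries at W3.5, and 4 of each line at W5.0, the awn primordium stage. A further sample, a shoot apex of cultivar Mesa, is not analysed here. The labels do not say that libraries of a group came from separate plants, so the spread between them, and any p-value that rests on it, may be technical. mnd1.a is 1 line with 1 allele, and nothing here separates the allele from other differences between that line and Bowman.

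Invertases, or beta-fructofuranosidases, split sucrose irreversibly into glucose and fructose. The cell-wall form, called insoluble because it stays bound to the wall, acts outside the cell on sucrose unloaded from the phloem and feeds growing sink tissue. The acid soluble form acts in the vacuole, where the hexoses it releases raise the osmotic content of expanding cells, and neutral or alkaline forms act in the cytosol and organelles. In grasses the enzymes that build and break down fructans belong to the same family of glycoside hydrolases and resemble the acid and the cell-wall forms, so an annotation by similarity does not always tell them apart.

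The table annotates HORVU2Hr1G109120 as beta-fructofuranosidase, insoluble isoenzyme 7, and places it on chromosome 2H from 715917131 to 715930331, a span of 13201 bases. HORVU7Hr1G001040 is annotated as acid beta-fructofuranosidase and lies on chromosome 7H from 2257431 to 2260153, a span of 2723 bases. The sources used here name no genome build. These are the coordinates of the whole gene, and exon positions were not used here. No other gene of the table overlaps either of them, and no other gene has the same counts as either, although further invertase genes lie on both chromosomes and near-identical copies could share reads.

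Library totals ran between 11436651 and 21596190 estimated counts, so that 3 counts, taken as the lower limit of detection in 1 library, stood for 0.13 to 0.25 CPM. CPM are counts scaled to a common library total, here after normalization by trimmed mean of M-values (TMM), and all levels below are in CPM. The gene known as MND1 (HORVU7Hr1G113480), annotated in the table to the acyl-CoA N-acyltransferase superfamily, was read as a check of the labels. It ranged from 4.80 to 6.71, 3.48 to 4.55 and 2.39 to 6.02 CPM in mnd1.a at the successive stages, against 10.5 to 21, 14.4 to 30.6 and 6.15 to 16.0 CPM in Bowman, without overlap at any stage. Libraries carry 1 of 2 code prefixes in the column headings. Both lines share the prefix at each of the earlier stages. At W5.0 all mnd1.a libraries carry one prefix and all Bowman libraries the other, so prefix and line cannot be told apart there.

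The cell-wall invertase was lower in mnd1.a at the first and last stage and overlapped Bowman between them. At W2.0 the 3 mnd1.a libraries held 4.23, 4.21 and 7.05 CPM, against 11.3, 9.60 and 16.9 CPM in Bowman. Every mnd1.a library lay below every Bowman library, and the fitted log2 fold change of mnd1.a over Bowman was -1.27 ± 0.48 (SE), or 2.42-fold lower. At W3.5 the mnd1.a libraries held 3.2, 8.03 and 1.89 CPM, against 6.33, 2.90, 4.09 and 3.96 CPM in Bowman. The mnd1.a libraries reached both above and below all Bowman libraries, and the log2 fold change was -0.01 ± 0.47. Leaving out mnd1.a replicate 2, the highest of them, moved it to -0.78, and leaving out replicate 3, the lowest, to 0.36.

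At W5.0 the gene was almost silent in mnd1.a. Its libraries held 0.989, 0.849, 1.44 and 0.164 CPM, against 27.9, 22.8, 18.2 and 9.64 CPM in Bowman. The highest mnd1.a library stayed below the lowest Bowman library, and the group means were 0.860 ± 0.528 CPM in mnd1.a and 19.6 ± 7.74 in Bowman (SD, n = 4 each). The log2 fold change was -4.49 ± 0.51, or 22.5-fold lower in mnd1.a, and it ran from -4.86 to -4.16 with single libraries left out. The mnd1.a values rest on 12.0, 10.8, 19.2 and 2.39 estimated counts, the last of which is under the limit of 3 counts. In bulk tissue, fewer cells that express the gene and less RNA in each of them cannot be told apart. Among all genes tested, libraries of the 2 lines did not overlap, with mnd1.a lower, in 8.93% at W2.0 and 16.3% at W5.0. Since the gene was chosen for these differences, nothing is read from its place among them.

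Across stages the cell-wall invertase followed another course in each line. Its mean in mnd1.a was 5.16 ± 1.64 CPM at W2.0 (SD, n = 3), 4.37 ± 3.23 CPM at W3.5 (n = 3) and 0.860 ± 0.528 CPM at W5.0 (n = 4). In Bowman it was 12.6 ± 3.83 CPM at W2.0 (n = 3), 4.32 ± 1.44 CPM at W3.5 (n = 4) and 19.6 ± 7.74 CPM at W5.0 (n = 4). The mnd1.a libraries of W2.0 and W3.5 overlapped, with a log2 difference of -0.27 ± 0.50 for W3.5 over W2.0, whereas those of W5.0 all lay below those of W3.5, with -2.30 ± 0.56. Without mnd1.a W3.5 replicate 2 the difference between W5.0 and W3.5 was -1.54. In Bowman every W3.5 library lay below every W2.0 library, with a log2 difference of -1.53 ± 0.44, and every W5.0 library lay above every W3.5 library, with 2.18 ± 0.42. Among all genes tested, 14.2% had such a gap downward in mnd1.a from W3.5 to W5.0, 15.6% downward in Bowman from W2.0 to W3.5 and 3.99% upward in Bowman from W3.5 to W5.0. On the log2 scale, the line difference at W5.0 minus that at W3.5 was -4.47 ± 0.69, and minus that at W2.0 it was -3.22 ± 0.70. Both mnd1.a steps and the Bowman step between W2.0 and W3.5 join libraries of different code prefix, here and for the acid invertase below.

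Ordered by mean level, Bowman at W5.0 stood highest for the cell-wall invertase, with Bowman at W2.0 next and overlapping it. mnd1.a at W2.0 followed, with all libraries below those of Bowman at W2.0, then mnd1.a and Bowman at W3.5, which overlapped each other and mnd1.a at W2.0. mnd1.a at W5.0 came last, below all libraries of the other groups.

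**Figure D1:**
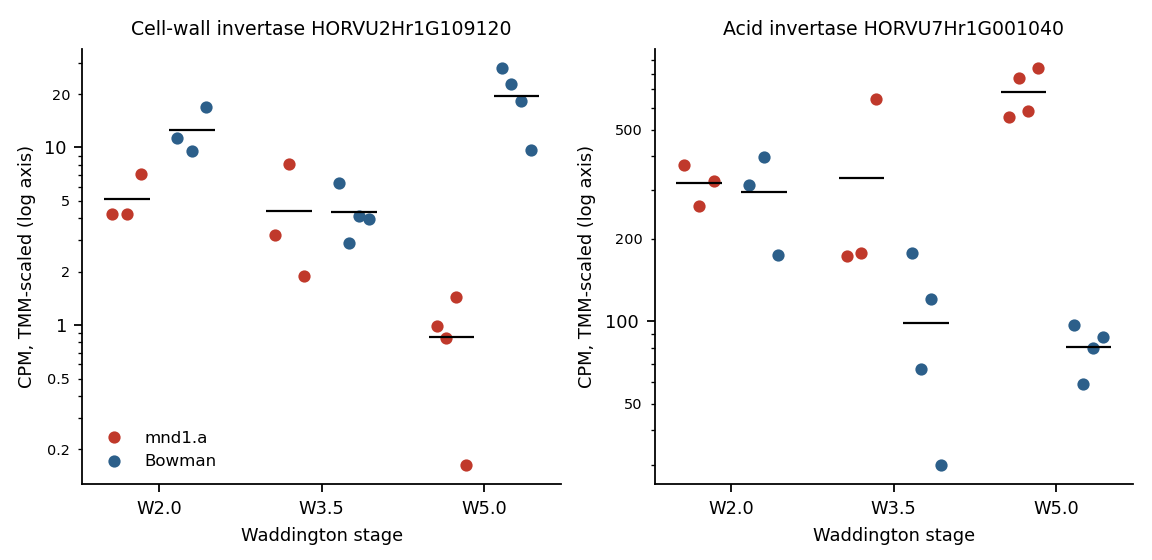
Level of the cell-wall invertase HORVU2Hr1G109120 and the acid invertase HORVU7Hr1G001040 in each library (points, TMM-scaled CPM on a log axis) by line and Waddington stage, with mnd1.a in red, Bowman in blue and the mean of each group as a line. At W5.0 the mnd1.a libraries lie below the Bowman libraries for the cell-wall invertase, 0.164 to 1.44 against 9.64 to 27.9 CPM, and above them for the acid invertase, 554 to 836 against 59.1 to 96.6 CPM.

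The acid invertase stood the other way, and its difference between the lines was larger at each later stage. At W2.0 the mnd1.a libraries held 370, 263 and 325 CPM, against 314, 398 and 174 CPM in Bowman. The lines overlapped, and the log2 fold change was 0.11 ± 0.54, with -0.15 when Bowman replicate 3, the lowest, was left out. At W3.5 the mnd1.a libraries held 173, 177 and 645 CPM, against 178, 67.2, 120 and 30.0 CPM in Bowman. Here 2 of the 3 mnd1.a libraries lay just under the highest Bowman library, and the log2 fold change was 1.74 ± 0.50, or 3.35-fold higher in mnd1.a. It rests on mnd1.a replicate 3, without which it was 0.82, and Bowman replicates 2 and 4 left out together gave 1.16. Those Bowman libraries had the smallest totals of all, 11671454 and 11436651 estimated counts, and the lowest acid invertase levels of their group.

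At W5.0 the acid invertase was high in all mnd1.a libraries, with 554, 773, 582 and 836 CPM, against 96.6, 59.1, 79.6 and 87.2 CPM in Bowman. The lines lay far apart, with means of 686 ± 139 CPM in mnd1.a and 80.6 ± 16.0 in Bowman (SD, n = 4 each). The log2 fold change was 3.09 ± 0.50, or 8.51-fold higher in mnd1.a, and it ran from 2.96 to 3.19 with single libraries left out. Of all genes tested, 17.8% had libraries that did not overlap with mnd1.a higher at W5.0, and again nothing is read from this for a gene chosen for the difference.

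Across stages the acid invertase averaged 319 ± 54 CPM at W2.0 (SD, n = 3), 332 ± 271 CPM at W3.5 (n = 3) and 686 ± 139 CPM at W5.0 (n = 4) in mnd1.a. In Bowman it averaged 295 ± 113 CPM at W2.0 (n = 3), 98.7 ± 64.3 CPM at W3.5 (n = 4) and 80.6 ± 16.0 CPM at W5.0 (n = 4). Libraries of neighbouring stages overlapped in both lines. The log2 differences were 0.06 ± 0.54 for W3.5 over W2.0 and 1.05 ± 0.51 for W5.0 over W3.5 in mnd1.a, and -1.58 ± 0.50 and -0.30 ± 0.47 in Bowman. Without mnd1.a W3.5 replicate 3 the mnd1.a differences became -0.87 and 1.97. The line difference at W5.0 exceeded that at W2.0 by 2.98 ± 0.73 and that at W3.5 by 1.34 ± 0.69 on the log2 scale. By mean level the mnd1.a groups came first, from the latest stage to the earliest, and the Bowman groups after them, from the earliest to the latest. Each group overlapped the next, so no group in that order had all its libraries apart from those of the next.

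In 3 of the 6 groups a library stood at opposite ends for the 2 genes, and in the other 3 groups a library stood at the same end for both. mnd1.a replicate 3 at W3.5 had the highest acid invertase level of its group, 645 CPM, and the lowest cell-wall invertase level, 1.89 CPM. mnd1.a replicate 4 at W5.0 had the highest acid level, 836 CPM, with the lowest cell-wall level, 0.164 CPM. In Bowman at W2.0, replicate 3 was highest for the cell-wall gene, 16.9 CPM, and lowest for the acid gene, 174 CPM, and replicate 2 was lowest for the cell-wall gene, 9.60 CPM, and highest for the acid gene, 398 CPM. Bowman replicate 1 was highest of its group for both genes at W3.5, with 6.33 CPM for the cell-wall gene and 178 CPM for the acid gene, and again at W5.0, with 27.9 and 96.6 CPM. mnd1.a replicate 2 at W2.0 was lowest for both, with 4.21 and 263 CPM.

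In the authors' deposited table, the log2 fold changes of mnd1.a over Bowman were, by stage from W2.0 on, -1.24, -0.28 and -4.63 for the cell-wall invertase, with false discovery rates of 0.321, 0.827 and 0.000368. For the acid invertase the authors' deposited table gives 0.19, 1.72 and 3.08, with false discovery rates of 0.962, 0.058 and 7.19e-05. These come from the same libraries as the values above, and both genes were chosen for such differences, so the false discovery rates are no separate test of them.

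Markers of tissues in the sample were read alongside. The summed level of 88 green leaf genes (71 tested) was 754 to 1355 CPM in mnd1.a, against 273 to 459 CPM in Bowman at W2.0, where the lines did not overlap. At W3.5 it was 1112 to 1713 CPM in mnd1.a, against 1137 to 1714 CPM in Bowman, and at W5.0 it was 1169 to 1760 CPM in mnd1.a, against 1223 to 1836 CPM in Bowman. The lines overlapped at both of these stages. All 40 genes annotated as MADS-box (34 tested) were summed as a reading of floral organs, without limiting the list to floral genes. That sum was lower in mnd1.a without overlap at W3.5, with 739 to 796 CPM in mnd1.a, against 923 to 1129 CPM in Bowman. It was also lower without overlap at W5.0, with 926 to 959 CPM in mnd1.a, against 1072 to 1393 CPM in Bowman. Sums of 9 knotted-type meristem genes (258 to 286 CPM in mnd1.a, 251 to 335 CPM in Bowman) and of 3 phloem genes (9.28 to 10.5 CPM in mnd1.a, 7.09 to 9.45 CPM in Bowman) overlapped at W5.0. The sum of 20 genes with anther or pollen terms in their names was 495 to 516 CPM in mnd1.a, against 453 to 512 CPM in Bowman at that stage. It was about as high at W2.0, with 487 to 507 CPM in mnd1.a, against 458 to 526 CPM in Bowman. No marker was at 0 in every library. The part of tissue makeup in the invertase differences was not tested.

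The table names 32 further invertase genes, of which 27 were tested, and most of these were not called at any stage. Here and below a gene is called changed at an adjusted p under 0.05 in edgeR's quasi-likelihood test, adjusted over all 21132 genes after Benjamini and Hochberg. At W2.0 edgeR called 0 of the 27 (1 lower at an unadjusted p under 0.05, and 0 by DESeq2 and by limma-voom), against a background of 0.79% of all genes. At W3.5 it called 1 higher and 1 lower in mnd1.a, against 3.91% of all genes (1.77% higher and 2.13% lower). At W5.0 it called 4 higher and 2 lower, against 30.2% of all genes (15% higher and 15.2% lower). The median log2 fold change of the 27 genes was 0.05, 0.37 and -0.10 at the successive stages, beside -0.01 over all genes tested at each of them.

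Among the other cell-wall invertases, HORVU5Hr1G123970, insoluble isoenzyme 4, went opposite to HORVU2Hr1G109120 at W5.0. It averaged 26.2 ± 6.46 CPM in mnd1.a, where the highest library had 34.9 CPM, against 6.74 ± 3.13 CPM in Bowman, where the highest had 9.68 CPM (SD, n = 4 each). The lines did not overlap and the gene rose, the log2 fold change being 1.94 ± 0.48 (edgeR adjusted p = 0.00651), a call kept with any single library left out. HORVU2Hr1G109080, also named isoenzyme 7 and 120 kb from HORVU2Hr1G109120, held 6.93, 7.18, 6.74 and 4.68 CPM in mnd1.a, against 4.12, 1.61, 4.28 and 3.30 CPM in Bowman at W5.0. Again the lines did not overlap, and mnd1.a was higher by 0.93 ± 0.32 (edgeR adjusted p = 0.0345). That call was lost without Bowman W5.0 replicate 2 or 4 or mnd1.a W5.0 replicate 1, 2 or 3, at edgeR adjusted p between 0.0634 and 0.106. HORVU2Hr1G109240, a further invertase on that stretch of chromosome 2H, had too few counts to be tested. HORVU5Hr1G124030, an insoluble form close in name to HORVU5Hr1G123970, averaged 94.9 ± 14.5 CPM in mnd1.a and 44.1 ± 16.7 in Bowman (SD, n = 4 each) and just missed the threshold (edgeR adjusted p = 0.0506).

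Among the other acid invertases, HORVU7Hr1G000260, on chromosome 7H at 1.98 Mb from HORVU7Hr1G001040, was higher in mnd1.a, as HORVU7Hr1G001040 was. At W3.5 it held 119, 107 and 136 CPM in mnd1.a, against 59.5, 21.7, 46.2 and 18.9 CPM in Bowman. Every mnd1.a library exceeded every Bowman library, the log2 fold change being 1.71 ± 0.35 (edgeR adjusted p = 0.0104), a call kept without any single library. Its edgeR adjusted p was 0.0674 when Bowman W3.5 replicates 2 and 4 were both left out and 0.163 when the 2 groups were fitted alone. At W5.0 it held 115, 173, 128 and 195 CPM in mnd1.a, against 46.2, 41.2, 34.5 and 74.7 CPM in Bowman. The lines again stood apart, by 1.64 ± 0.33 (edgeR adjusted p = 0.00153), with the call kept under every single library left out. Its neighbour HORVU7Hr1G000250 averaged 25.7 ± 6.79 CPM in mnd1.a and 13.0 ± 3.19 in Bowman at W5.0 (SD, n = 4 each; edgeR adjusted p = 0.0518).

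The calls for lower acid invertases came from genes near the limit of detection. HORVU7Hr1G001070, which lies 163 kb from HORVU7Hr1G001040 with other genes between them, had no counts in any mnd1.a library at W5.0, against 5.50, 0.0642, 0.0563 and 0 CPM in Bowman. Its level was at least 29.6-fold lower in mnd1.a, taking 3 counts over the group as the floor, but nearly all of the Bowman counts were in replicate 1. Without Bowman W5.0 replicate 1 its edgeR adjusted p of 0.024 became 0.256. HORVU2Hr1G091990 had no counts in mnd1.a at W3.5, against 0.320, 0.415, 0.215 and 1.10 CPM in Bowman, and was at least 6.40-fold lower in mnd1.a on the same floor (edgeR adjusted p = 0.0159). That call was lost without mnd1.a W3.5 replicate 1 or 2, at edgeR adjusted p of 0.0653 and 0.0686. The gene was tested in only 6 of the 7 fits with 1 library left out, and 4 of these kept the call. At W5.0 HORVU2Hr1G091990 held 0.0824, 0.0772, 0.151 and 0.164 CPM in mnd1.a, against 0.754, 0.707, 0.338 and 0.381 CPM in Bowman. Its edgeR adjusted p of 0.0318 became 0.0542 to 0.0819 without any 1 of the 4 mnd1.a libraries. Here 6 of the 8 such fits tested the gene, so the call was not checked against every Bowman library. The acid forms HORVU2Hr1G091910, HORVU6Hr1G004000 and HORVU6Hr1G004010 had log2 fold changes of -2.31, -1.85 and -2.07 at W5.0 and were not called (edgeR adjusted p = 0.0809, 0.0881 and 0.213).

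The neutral and alkaline invertases, 8 genes of which 7 were tested, gave 1 call at W5.0, against 30.2% of all genes called. HORVU4Hr1G019410 averaged 7.69 ± 1.57 CPM in mnd1.a and 4.21 ± 2.01 in Bowman (SD, n = 4 each), higher by 0.85 ± 0.29 on the log2 scale (edgeR adjusted p = 0.0348). The call was lost without Bowman W5.0 replicate 2, 3 or 4 or mnd1.a W5.0 replicate 2 or 3, at edgeR adjusted p between 0.0633 and 0.115.

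Summed over each class without the 2 genes above, the acid invertases averaged 231, 163 and 179 CPM in mnd1.a at the successive stages, against 180, 62.3 and 68.1 CPM in Bowman. The ranges of the lines did not overlap at W3.5, with 140 to 189 CPM in mnd1.a, against 29.9 to 109 CPM in Bowman, nor at W5.0, with 133 to 222 CPM in mnd1.a, against 48.8 to 90.6 CPM in Bowman. HORVU7Hr1G000260 made up most of that sum at W5.0, with means of 153 ± 37.2 CPM in mnd1.a and 49.1 ± 17.7 in Bowman (SD, n = 4 each). The insoluble forms summed to means of 303, 351 and 176 CPM in mnd1.a, against 268, 205 and 104 CPM in Bowman, so the summed level of the class was not lower in mnd1.a at W5.0 although HORVU2Hr1G109120 was. Neutral forms summed to 279, 264 and 218 CPM in mnd1.a, against 295, 234 and 224 CPM in Bowman.

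**Figure D2:**
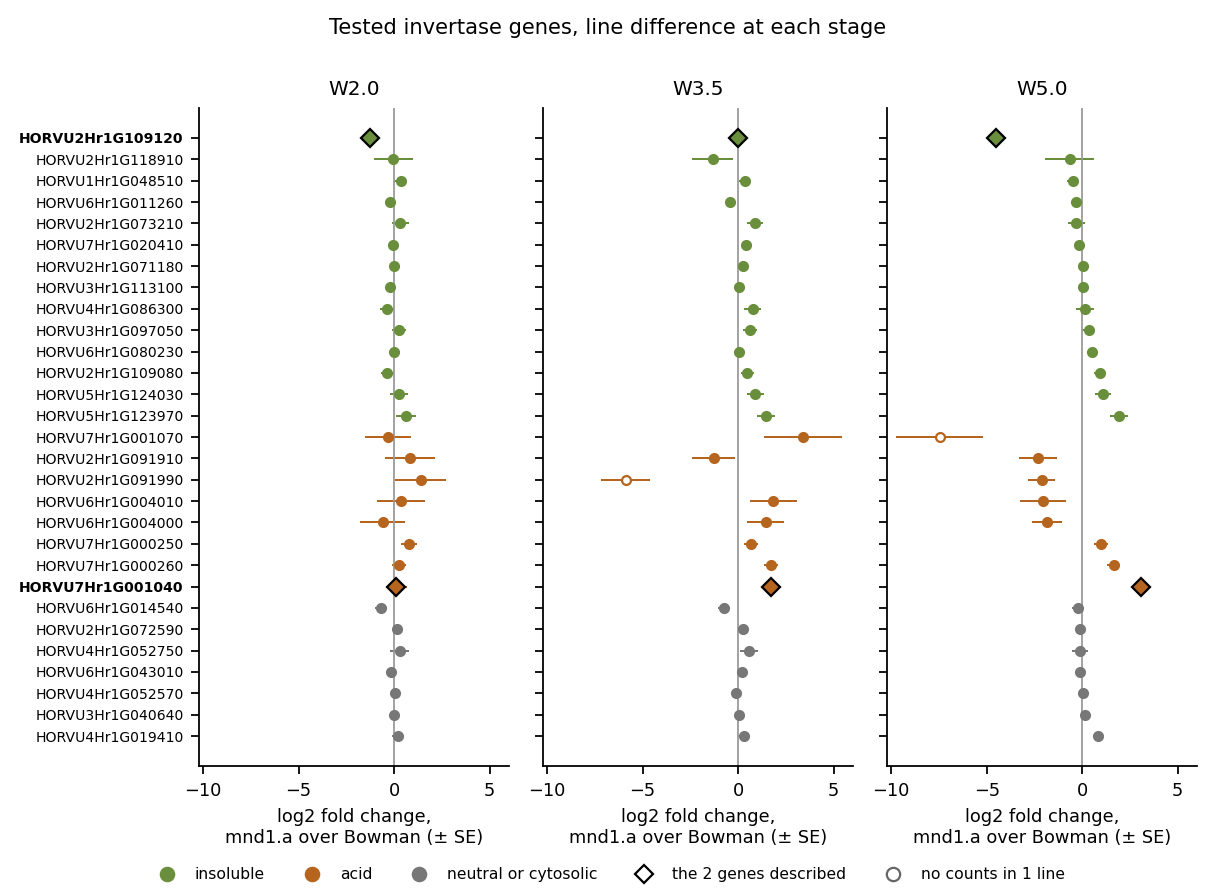
Log2 fold change of mnd1.a over Bowman, with SE, for the 2 invertases described (diamonds) and the 27 other invertases tested (circles, open where 1 line had no counts, so that the fitted value depends on the prior count), in a panel for each stage and coloured by enzyme class. At W5.0 HORVU2Hr1G109120 lies at -4.49 and HORVU7Hr1G001040 at 3.09, while the median of the 27 others is -0.10.

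The other invertases that changed over the stages mostly fell. Between W2.0 and W3.5, HORVU4Hr1G086300, an insoluble form, fell in both lines, by 2.37 ± 0.43 in mnd1.a (edgeR adjusted p = 0.00404) and by 3.51 ± 0.40 in Bowman (edgeR adjusted p = 1.09e-05) on the log2 scale. It was the only other invertase called for that step in mnd1.a, where 3.78% of all genes were called (2.19% lower). In Bowman 1 was called higher and 7 lower, against 29.4% of all genes (14.2% higher and 15.2% lower). Among those lower was HORVU7Hr1G000260, which fell by 1.96 ± 0.35 (edgeR adjusted p = 0.000766), the step at which HORVU7Hr1G001040 also stood 1.58 lower. Between W3.5 and W5.0, 5 were called lower in mnd1.a, against 10.1% of all genes called (5.01% lower). They were led by HORVU2Hr1G073210, an insoluble form, which fell by 2.67 ± 0.46 (edgeR adjusted p = 0.00159). The neutral form HORVU2Hr1G072590 fell by 0.45 ± 0.09 (edgeR adjusted p = 0.00358), and both calls were kept without any single library. The insoluble forms HORVU2Hr1G071180 and HORVU7Hr1G020410 and the neutral form HORVU6Hr1G043010 had log2 differences of -0.83, -0.96 and -0.33. The first of these was not called without mnd1.a W3.5 replicate 2 (edgeR adjusted p = 0.0884), nor were the other two without mnd1.a W3.5 replicate 1 or 2 or any mnd1.a W5.0 library, at edgeR adjusted p between 0.054 and 0.221. In Bowman HORVU2Hr1G073210, HORVU2Hr1G071180 and HORVU6Hr1G080230 were called lower at that step, against 7.59% of all genes called (3.7% lower). All 3 calls were lost without Bowman W3.5 replicate 1 or Bowman W5.0 replicate 2, 3 or 4, and the first pair also without Bowman W3.5 replicate 2 or 3, at edgeR adjusted p between 0.0505 and 0.169. HORVU2Hr1G109120 stood 2.18 higher in Bowman over the same step. The line difference of HORVU7Hr1G000260 was larger at W5.0 than at W2.0 by 1.37 ± 0.48, which missed the threshold (edgeR adjusted p = 0.0804), while 10.3% of all genes passed it (1.02% for W5.0 against W3.5).

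Other steps of sucrose use were read from lists of genes drawn from the table's annotation by name. With the further invertases these held 214 genes, of which 178 were tested. At W2.0 edgeR called 1 of the 178, lower in mnd1.a, which is 0.562%, against 0.79% over all genes. At W3.5 it called 2 higher and 3 lower, which is 2.81%, against 3.91% over all genes. At W5.0 it called 18 higher and 27 lower, which is 25.3% of the genes tested, against 30.2% over all genes. The median log2 fold change at W5.0 was -0.10.

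Proteins annotated as invertase or pectin methylesterase inhibitors, some of which block cell-wall or vacuolar invertases, held 3 tested genes. HORVU1Hr1G047710 was lower in mnd1.a at W5.0, with 0.724 ± 0.279 CPM in mnd1.a and 1.84 ± 0.949 in Bowman (SD, n = 4 each). The log2 fold change was -1.32 ± 0.39 (edgeR adjusted p = 0.016). The call was lost without Bowman W5.0 replicate 2 or mnd1.a W5.0 replicate 4, at edgeR adjusted p of 0.0703 and 0.0516, and with limma-voom, at an adjusted p of 0.0721. The libraries of the lines overlapped. The name does not tell which enzyme it acts on.

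Sucrose synthases, which split sucrose reversibly to fructose and a nucleotide sugar, changed in both directions at W5.0, with 2 of 10 higher and 2 lower in mnd1.a, against 30.2% of all genes called (15% higher and 15.2% lower). HORVU2Hr1G030870, sucrose synthase 4, was lower in mnd1.a at every stage, with means of 9.52 ± 3.33, 6.42 ± 0.365 and 11.1 ± 1.26 CPM in mnd1.a by stage, against 17.6 ± 2.37, 21 ± 1.41 and 18.4 ± 2.85 CPM in Bowman. Its log2 fold changes were -0.87 ± 0.19, -1.71 ± 0.19 and -0.73 ± 0.17 (edgeR adjusted p = 0.0356, 2.66e-05 and 0.00321). At W2.0 the call was lost without replicate 1 or 2 of either line, at edgeR adjusted p between 0.052 and 0.139. HORVU7Hr1G033230, also sucrose synthase 4, was lower in mnd1.a at W5.0, with 643 ± 46.8 CPM in mnd1.a and 1218 ± 347 in Bowman (SD, n = 4 each). Its log2 fold change was -0.92 ± 0.17 (edgeR adjusted p = 0.000758). HORVU7Hr1G120520, sucrose synthase 6, was higher in mnd1.a, with 7.79 ± 0.636 CPM in mnd1.a and 4.21 ± 1.48 in Bowman (edgeR adjusted p = 0.00723). A further sucrose synthase 6, HORVU0Hr1G038330, was higher by 1.00 ± 0.37 (edgeR adjusted p = 0.0471), a call lost without Bowman W5.0 replicate 2, 3 or 4 or any mnd1.a W5.0 library, at edgeR adjusted p between 0.0584 and 0.13.

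The enzymes that make sucrose, sucrose-phosphate synthase and sucrose-phosphatase, were lower at W5.0 for 4 of 6 genes tested, against 15.2% of all genes called lower. HORVU7Hr1G115590, a sucrose-phosphate synthase, averaged 33.6 ± 2.14 CPM in mnd1.a and 54 ± 8.06 in Bowman (SD, n = 4 each; log2 fold change -0.69 ± 0.12, edgeR adjusted p = 0.000333). HORVU5Hr1G000580, a sucrose-phosphatase, averaged 84.6 ± 3.98 CPM in mnd1.a and 117 ± 15.3 in Bowman (log2 fold change -0.46 ± 0.09, edgeR adjusted p = 0.00116). HORVU3Hr1G002280 and HORVU6Hr1G028330 were lower by smaller amounts, with log2 fold changes of -0.43 ± 0.08 and -0.30 ± 0.06 (edgeR adjusted p = 0.000571 and 0.00164).

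Of 64 tested transporters, among them those that bring sucrose to the cell-wall enzyme and carry hexoses into the cell, 15 were called at W5.0, which is 23.4%, against 30.2% of all genes. At W5.0 all 5 tested SWEET genes, whose products let sugars pass out of cells down a gradient, had positive log2 fold changes, between 0.79 and 1.79, with a median of 0.89. edgeR called 0 of them (1 higher at an unadjusted p under 0.05), DESeq2 called 0 and limma-voom called 3 higher. A further 7 tested genes named bidirectional sugar transporter N3, of the same family, were counted with the other sugar transporters. Their log2 fold changes ran from -0.49 for HORVU0Hr1G010080 to 1.63 for HORVU1Hr1G029920, with 3 above 0 and 4 below it, and the lowest edgeR adjusted p was 0.0537, for HORVU6Hr1G029520 at -0.48. Of 4 sucrose transporters, which carry sucrose with protons, HORVU4Hr1G075200 was higher, with 0.989, 0.618, 0.833 and 0.904 CPM in mnd1.a, against 0.266, 0.321, 0.113 and 0 CPM in Bowman (log2 fold change 2.17 ± 0.74, edgeR adjusted p = 0.0332). Its call was lost without Bowman W5.0 replicate 3 or 4 or mnd1.a W5.0 replicate 1, 3 or 4, at edgeR adjusted p between 0.0593 and 0.0837. Of 55 other sugar transporters, 21 of them nucleotide-sugar carriers that do not move hexoses, 8 were higher and 6 lower in mnd1.a. The nucleotide-sugar carriers made up 6 of the 8 higher and 2 of the 6 lower, so 2 of the remaining 34 were higher and 4 lower. HORVU2Hr1G079700, sugar transporter protein 7, held 13.4 to 17.6 CPM in the 4 mnd1.a libraries, against 6.85 to 13.2 CPM in the 4 Bowman libraries, higher by 0.72 ± 0.26 on the log2 scale (edgeR adjusted p = 0.0411). Its call was lost without Bowman W5.0 replicate 1, 2 or 4 or mnd1.a W5.0 replicate 1, 2 or 3, at edgeR adjusted p between 0.0603 and 0.112. Those lower in mnd1.a included HORVU2Hr1G107660, HORVU5Hr1G060210 and HORVU1Hr1G089680, with log2 fold changes of -0.95 ± 0.21, -0.91 ± 0.25 and -0.73 ± 0.16 (edgeR adjusted p = 0.00273, 0.0105 and 0.00244).

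Downstream of the hexoses, 22 kinases were tested, 11 of them phosphofructokinases of glycolysis. At W5.0, where 30.2% of all genes were called, 1 of them was higher and 3 were lower in mnd1.a. Among those lower was HORVU3Hr1G105380, hexokinase-like 1, by 0.82 ± 0.16 on the log2 scale (edgeR adjusted p = 0.000904). Of 17 genes for trehalose 6-phosphate, a sugar phosphate that tracks sucrose and acts as a signal in plants, 1 was higher and 5 were lower in mnd1.a, against 15% and 15.2% of all genes. HORVU0Hr1G028350, a trehalose-phosphate synthase, stayed in every mnd1.a library below the lowest Bowman library, which had 29.3 CPM. It was lower in mnd1.a by 2.25 ± 0.42 on the log2 scale (edgeR adjusted p = 0.00104). HORVU5Hr1G060460 of the same list averaged 166 ± 25.3 CPM in mnd1.a and 439 ± 161 in Bowman (SD, n = 4 each; edgeR adjusted p = 0.00434). Of 29 starch genes, 1 was higher and 4 were lower, against the same shares of all genes, and HORVU1Hr1G055140, beta-amylase 1, which releases maltose from starch, averaged 22.4 ± 2.44 CPM in mnd1.a and 53.6 ± 11.3 in Bowman (log2 fold change -1.26 ± 0.17, edgeR adjusted p = 3.35e-05).

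**Figure D3:**
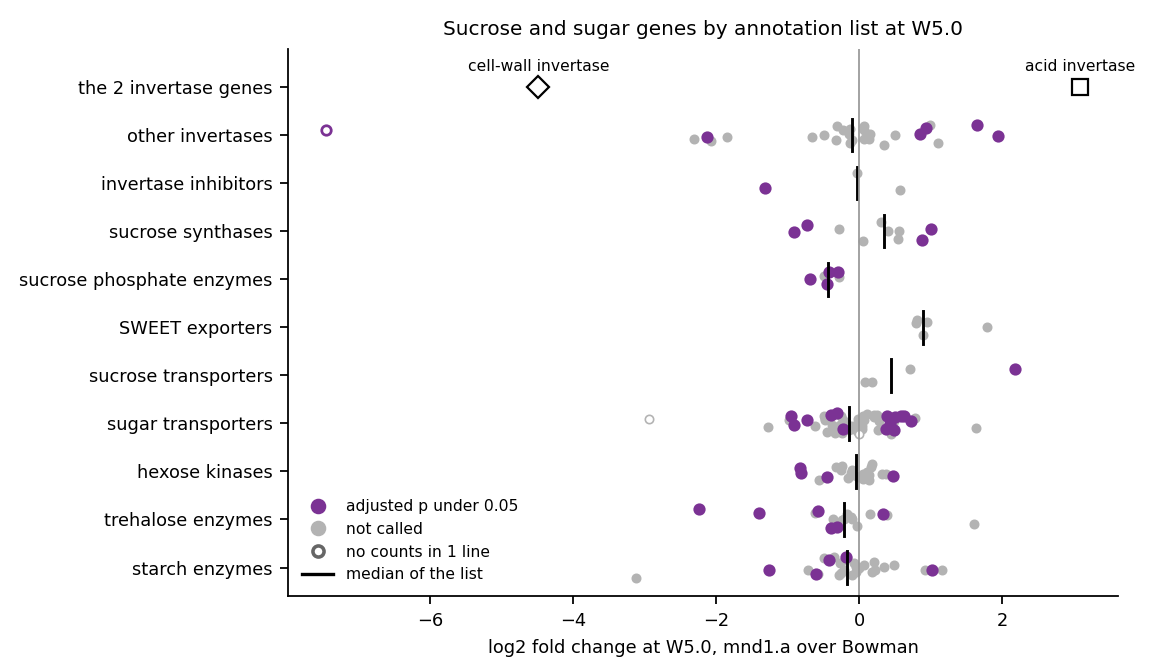
Log2 fold change of mnd1.a over Bowman at W5.0 for each tested gene of the sucrose lists (points, purple where the edgeR adjusted p is under 0.05 and grey otherwise, open where 1 line had no counts), with the median of each list as a line. The cell-wall invertase is the diamond in the top row and the acid invertase the square. Purple points stand on both sides of 0 in most lists, and none of the 5 SWEET genes, between 0.79 and 1.79, is purple.

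The genes beside each invertase on the chromosome differed in both directions. Around the cell-wall invertase HORVU2Hr1G109120 at W5.0, 2 of the 6 nearest tested genes were called higher and 1 lower in mnd1.a. Of all genes, 15% were called higher and 15.2% lower. HORVU2Hr1G109140, a Cox19-like gene 2.06 kb away, stood at -0.38 ± 0.13 on the log2 scale (edgeR adjusted p = 0.0361), a call lost without Bowman W5.0 replicate 2 or 4 or mnd1.a W5.0 replicate 1 or 3, at edgeR adjusted p between 0.0558 and 0.167. On the other side HORVU2Hr1G109080, the invertase described above and 120 kb away, was higher in mnd1.a. HORVU2Hr1G109030, with a SWIB domain and 208 kb away, was higher by 0.49 ± 0.10 (edgeR adjusted p = 0.00131). Around the acid invertase HORVU7Hr1G001040 at W5.0, the same shares of all genes apply. HORVU7Hr1G001010, a BAG-family gene 45.3 kb away, was higher in mnd1.a by 0.52 ± 0.08 (edgeR adjusted p = 0.000125). HORVU7Hr1G000970, an acyltransferase gene 184 kb away, was higher by 2.41 ± 0.76 (edgeR adjusted p = 0.0227), a call lost without Bowman W5.0 replicate 1 or mnd1.a W5.0 replicate 1, at edgeR adjusted p of 0.056 and 0.0756. HORVU7Hr1G000910, a NAC-domain gene 352 kb away, was lower by 0.43 ± 0.10 (edgeR adjusted p = 0.00387). HORVU7Hr1G001070, the acid invertase described above, was also called lower. HORVU7Hr1G001030 and HORVU7Hr1G001020 were not called, at -0.15 and 0.59. At W3.5, where 1.77% of all genes were called higher, HORVU7Hr1G001010 (0.39, edgeR adjusted p = 0.0125) and HORVU7Hr1G000970 (2.72, edgeR adjusted p = 0.0451) were called higher too. The second call was kept in 3 of 7 fits with 1 library left out.

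**Figure D4:**
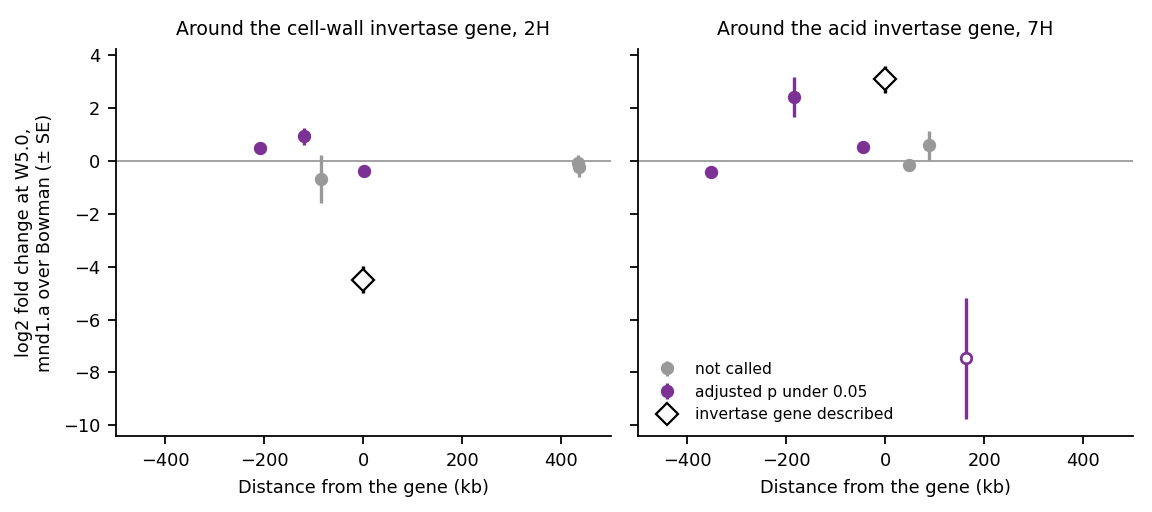
Log2 fold change of mnd1.a over Bowman at W5.0, with SE, for each invertase described (diamond) and the 3 nearest tested genes on each side, by distance in kb along the chromosome (circles, purple where the edgeR adjusted p is under 0.05 and grey otherwise, open where mnd1.a had no counts and the fitted value depends on the prior count). The cell-wall invertase at -4.49 and the acid invertase at 3.09 stand beside neighbours such as HORVU2Hr1G109140 at -0.38 and HORVU7Hr1G001010 at 0.52.

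Over all 21 libraries, the genes whose level followed each invertase most closely were ranked by Pearson's r of log2 CPM. These libraries share line and stage, so the ranking describes a pattern over 6 groups. For the cell-wall invertase the closest was HORVU3Hr1G045630, an amino acid transporter, at r = 0.915 (Spearman's rho 0.855). HORVU5Hr1G114230, a Bowman-Birk trypsin inhibitor, a protein class that blocks digestive proteases, followed at r = 0.909 (rho 0.922). HORVU2Hr1G118570 and HORVU2Hr1G118550, both aluminium-induced proteins, had r = 0.907 and 0.887, and HORVU5Hr1G113880, an alpha-mannosidase that trims glycans, had r = 0.871. Only 3 genes exceeded an r of 0.9, and by Spearman's rho 3 of the 5 were again among the closest 5.

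For the acid invertase 21 genes exceeded an r of 0.9. The closest were HORVU6Hr1G006220 at r = 0.934, HORVU5Hr1G080700, a homeobox-leucine zipper transcription factor, at 0.929, and HORVU2Hr1G029120, a leucine-rich repeat kinase, at 0.925. HORVU7Hr1G087210, a transmembrane 9 family protein, and HORVU4Hr1G024960, a fatty acid desaturase, followed at 0.924 and 0.923, and 2 of these 5 were again among the closest 5 by Spearman's rho. Within the invertase family the closest to it were the acid form HORVU7Hr1G000260 at r = 0.885 and the cell-wall form HORVU5Hr1G123970 at 0.881.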

How the data were processed

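The deposited values are estimated counts per gene from RNA-seq of barley inflorescences, made by the authors on the annotation of Mascher and colleagues and headed raw counts, per the file headers. The submitters' processing notes name Salmon, BWA 0.7.15, limma and GATK. The genome build and whether counting used strand are not given in the sources used here. The authors' log2 fold changes and their FDR values (adjusted p-values) stand in the same deposited table, and 21 per-sample columns of the authors' normalized values were not used here. Headings of the count columns write W3.0 for the middle stage, which labels and comparisons call W3.5. The authors' W3.5 fold changes correlated with those refitted for that stage at r = 0.912 across genes, and at most 0.499 with the other stages, so it is called W3.5.

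Estimated counts of the 21 libraries were rounded to whole numbers, filtered with filterByExpr (count minimum 10, total minimum 15; 3186 genes removed), scaled by TMM (factors 0.902 to 1.08) and tested with edgeR 4.0.16 in R 4.3.3, quasi-likelihood test, 1 fit over 6 groups of line and stage, two-sided, Benjamini-Hochberg adjustment over all tested genes, threshold 0.05. Per-library CPM used TMM-scaled totals, and fitted values used edgeR's prior count. The SE of a fitted log2 fold change was derived, as the size of that change divided by the square root of its F statistic. DESeq2 1.42.0, limma 3.58.1 (voom), a stricter threshold (adjusted p 0.01 and 2-fold), fits of the 2 groups alone, no filter, and each library left out in turn were alternatives. A further alternative left out together Bowman W3.5 replicates 2 and 4, the libraries with the smallest totals. Limits of 3 counts cover counting error only.

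Both invertases and all gene lists were chosen with earlier results of these data known. Lists come from words in the table's annotation. The genes named are both invertases, MND1, every further invertase called or singled out, up to 4 genes of each list with the largest called change at a stage, 3 tested neighbours on each side, and the 5 genes most alike each invertase. The list of fructan enzymes found no gene by name. Lists without nucleotide-sugar transporters and phosphofructokinases were tried after seeing the annotations.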

Additional observations from a re-analysis of the deposited data

Results flagged for a closer look

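Among 110 groups of 4 libraries examined over the named genes, 12 had 1 library whose gap to the nearest other took up most of the group's range by Dixon's criterion, which is set so that about 1 in 20 groups passes by chance. The criterion looks at the gap relative to the range, so some of the gaps are small in size. The group with such a library and its value were, for the invertases, Bowman W5.0 replicate 1 with 5.50 CPM of HORVU7Hr1G001070, where the other 3 had at most 0.0642 CPM, and Bowman W3.5 replicate 3 with 0.0862 CPM of the same gene, where the others had no counts, a value under the limit of 3 counts. HORVU2Hr1G109080 stood at 7.67 CPM in Bowman W3.5 replicate 1, against 2.82 to 3.29 CPM in the others, and HORVU4Hr1G019410 at 7.18 CPM in Bowman W5.0 replicate 1, against 2.96 to 3.66 CPM. MND1 (HORVU7Hr1G113480) stood at 2.39 CPM in mnd1.a W5.0 replicate 2, against 5.90 to 6.02 CPM. In Bowman at W3.5, HORVU7Hr1G033230 had 1870 CPM in replicate 3, against 1324 to 1413 CPM in the others, and HORVU6Hr1G070270 had 428 CPM in replicate 1, against 312 to 325 CPM. In Bowman at W5.0, HORVU1Hr1G075550 had 212 CPM in replicate 1, against 192 to 196 CPM, and HORVU3Hr1G105380 had 87.7 CPM in replicate 2, against 50.8 to 54.8 CPM. In mnd1.a at W5.0, HORVU6Hr1G028330 had 187 CPM in replicate 4, against 190 CPM in each of the others, HORVU2Hr1G107660 had 6.84 CPM in replicate 1, against 7.64 to 7.80 CPM, and HORVU5Hr1G060460 had 203 CPM in replicate 3, against 148 to 157 CPM. The cell-wall invertase HORVU2Hr1G109120 and the acid invertase HORVU7Hr1G001040 had no such library in their groups of 4. Groups of 3 libraries were not examined. Among these was mnd1.a at W3.5, where the acid invertase held 173, 177 and 645 CPM.

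The line difference depended on the stage for 14 of the 64 genes examined, by edgeR's test of the interaction adjusted over all genes. Over all genes 10.3% were called for W5.0 over W2.0, and many of the 64 were named for a large line difference at W5.0, so nothing is read from their share. For W5.0 over W2.0 the enzymes that make sucrose differed by -0.76 for HORVU5Hr1G000580 (edgeR adjusted p = 0.0024), -0.52 for HORVU3Hr1G002280 and -0.65 for HORVU7Hr1G115590 on the log2 scale. The transporters HORVU4Hr1G075200 and HORVU1Hr1G089680 differed by 3.69 and -0.84. The kinases HORVU1Hr1G075550, HORVU3Hr1G019580 and HORVU6Hr1G070270 differed by -0.50, -1.47 and 0.53, and the trehalose-phosphate synthase HORVU0Hr1G028350 by -2.03 (edgeR adjusted p = 0.0478). The starch genes HORVU0Hr1G022810, HORVU6Hr1G015670 and HORVU1Hr1G055140 differed by -0.37, -0.63 and -1.07, and HORVU1Hr1G055140 by -1.12 for W5.0 over W3.5 (edgeR adjusted p = 0.0262). The neighbours HORVU7Hr1G000910 and HORVU7Hr1G001010 of the acid invertase differed by -0.69 and 0.56.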

How the results depend on the processing

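No paired analysis was possible because the labels carry no replicate numbers that tie libraries of different groups. With single libraries left out, the acid invertase's log2 fold change ran from -0.15 to 0.39 at W2.0 (0.00 without mnd1.a W2.0 replicate 1) and the cell-wall invertase's from -0.78 to 0.36 at W3.5 (0.01 with DESeq2), so both changed sign. The same held for 3 stage steps: the acid invertase in Bowman from W3.5 to W5.0 (-0.59 to 0.15) and in mnd1.a from W2.0 to W3.5 (-0.87 to 0.37, and -0.22 with limma-voom), and the cell-wall invertase in mnd1.a from W2.0 to W3.5 (-1.04 to 0.10). The other line differences of the 2 genes kept their sign. Of the 65 results for other named genes, 826 alternatives were run and all kept their direction. Nearly all of these results were named because the main fit called them, and the alternatives reuse its libraries, so a change of direction was unlikely from the start. The call was lost in 103 alternatives with 1 library left out and 13 fits of the 2 groups alone. It was also lost in 10 without Bowman W3.5 replicates 2 and 4, 7 with limma-voom and 2 without the filter.

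Counts of called genes moved more. Over all lists, main counts higher and lower were 0 and 1 at W2.0, 2 and 3 at W3.5 and 18 and 27 at W5.0. With single libraries left out they ran from 0 to 1 lower at W2.0, 1 to 14 higher and 1 to 10 lower at W3.5, and 10 to 23 higher at W5.0. DESeq2 gave 1 higher at W2.0, and 8 higher and 8 lower at W3.5. Fits of the 2 groups alone gave 2 higher and 0 lower at W2.0, and 0 higher and 1 lower at W3.5, as did leaving out Bowman W3.5 replicates 2 and 4 together at W3.5. The stricter threshold gave 0 lower at W2.0, 0 higher and 1 lower at W3.5, and 2 higher and 3 lower at W5.0. The shortened lists gave 1 higher at W3.5 and 11 higher at W5.0. For the 27 other invertases (1 higher and 1 lower at W3.5, 4 higher and 2 lower at W5.0), single libraries left out gave 1 to 4 and 0 to 2 at W3.5, and 2 to 7 and 0 to 2 at W5.0. Fits of 2 groups gave 1 higher at W2.0, 0 and 0 at W3.5 and 0 lower at W5.0, leaving out Bowman W3.5 replicates 2 and 4 gave 0 and 0 at W3.5, and the stricter threshold 0 and 0 at W3.5 and 2 and 0 at W5.0. Fewer samples or a higher bar explain some of these by construction, and the cause was otherwise not tested. The near-silent cell-wall gene in mnd1.a at W5.0 rests on few counts.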
